A study of Mus musculus with 5 samples.

Results

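Vitamin A reaches brain cells as retinol, which is oxidised to retinal and then to retinoic acid. The last step is made by the retinaldehyde dehydrogenases Aldh1a1, Aldh1a2 and Aldh1a3. Retinoic acid is carried in the cytoplasm by the binding proteins Crabp1 and Crabp2, acts in the nucleus through the retinoic acid receptors Rara, Rarb and Rarg, which pair with retinoid X receptors (RXR) on DNA, and is broken down by cytochromes of the Cyp26 family such as Cyp26b1. In the adult mouse brain, retinoic acid is known for its roles in the striatum, in hippocampal plasticity and in the neurogenic regions, and the meninges are a known source of it. The levels of these 9 genes, of 20340 coding genes in the expression table, are described here by region. The genes were taken by symbol from the reference transcripts of the table, and the FPKM values (sequenced fragments per transcript length and library size) of the 14 transcripts with these symbols were summed per gene. They were selected on knowledge of their function and of their regional FPKM values in these libraries, so their regional differences are a description and carry no test.

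Poly(A) RNA was sequenced from 4 microdissected brain regions of male C57BL/6 mice, wild type and adult. Neurogenesis continues in adult mice in the walls of the lateral ventricle, called the subventricular zone (SVZ), whose neuroblasts migrate to the olfactory bulb (OB), and in the dentate gyrus of the hippocampus (DG). The striatum (STR) is the non-neurogenic region that they were set against. The labels name no allele or agent in any group. The SVZ was sampled as 2 biological replicates, per the labels, while OB, DG and STR have a single library apiece. The sources used here do not give whether a sample held 1 animal or several, and the sequencing depth behind the FPKM values is unknown.

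The libraries did not stand equally apart. Reference transcripts shorter than 200 bases at 1 FPKM or more numbered 153 in SVZ sample 2 and 161 in STR, against 24 in SVZ sample 1, 19 in OB and 14 in DG, and Gapdh measured 32.4 FPKM in SVZ sample 2 and 39.5 FPKM in STR, against 457 FPKM in SVZ sample 1, 563 FPKM in OB and 414 FPKM in DG. SVZ sample 2 and STR thus resembled each other in these measures, and differences within each set of alike libraries are given beside the results of the 9 genes. The DG library listed 16725 transcripts at 0, against 9564 to 10807 in the others. Of the coding genes that reached 1 FPKM in either SVZ sample, 13.9% were at least 1 unit of log2(FPKM + 1) apart between the 2 SVZ samples. Of the 9 retinoic acid genes, 6 passed that filter and 0 were that far apart, the widest gap being 0.95 for Crabp1. Defining markers of the dissected tissues were in place: the summed level of 10 striatal projection neuron markers was 5091 and 4080 FPKM in the SVZ samples, 317 FPKM in OB, 95.2 FPKM in DG and 4385 FPKM in STR. Markers of striatal projection neurons were therefore as abundant in the SVZ dissections as in STR. The 6 dentate granule neuron markers summed to 681 FPKM in DG and 131 FPKM in STR, where Calb1 alone supplied 124 FPKM, and without Calb1 the other 5 summed to 569.8 FPKM in DG and 7.05 FPKM in STR. The 6 olfactory bulb neuron markers summed to 1670 FPKM in OB and 8.16 FPKM in STR. The 6 neuroblast markers summed to 211 and 144 FPKM in the SVZ samples, 402 FPKM in OB, 19.5 FPKM in DG and 16.7 FPKM in STR. Of these 6 markers, 5 were highest in OB. The 6 ependymal markers summed to 287 and 114 FPKM in the SVZ samples and 5.35 FPKM in STR.

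The promoters of 2 genes with opposite regional patterns are shown first, because both genes are known to respond to retinoic acid: Rarb, highest in the SVZ and STR, and Cyp26b1, highest in DG. Each is the RefSeq window of 300 bases, from 250 bases before the start of the gene to 50 bases after it, on GRCm38.p6, at chr14:16575427-16575726 on the minus strand for Rarb and at chr6:84593761-84594060 on the minus strand for Cyp26b1. Capitals mark the direct repeat in Rarb and the TATAAA run in Cyp26b1.
Rarb: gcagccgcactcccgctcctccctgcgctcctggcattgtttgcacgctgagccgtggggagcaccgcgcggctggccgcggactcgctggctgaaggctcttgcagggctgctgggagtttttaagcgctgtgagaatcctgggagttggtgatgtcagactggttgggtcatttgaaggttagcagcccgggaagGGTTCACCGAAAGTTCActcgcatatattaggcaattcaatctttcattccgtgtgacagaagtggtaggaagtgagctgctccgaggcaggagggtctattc
Cyp26b1: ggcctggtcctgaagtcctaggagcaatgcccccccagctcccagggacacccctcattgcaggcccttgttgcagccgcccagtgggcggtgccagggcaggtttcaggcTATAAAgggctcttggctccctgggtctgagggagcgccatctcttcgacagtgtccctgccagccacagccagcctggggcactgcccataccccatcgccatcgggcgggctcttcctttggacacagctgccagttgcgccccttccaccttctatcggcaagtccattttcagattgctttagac
The repeat in Rarb, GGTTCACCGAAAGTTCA, is 17 bases long and spans positions -53 to -37 relative to the start of the gene. It holds the hexamers GGTTCA and AGTTCA with 5 bases between them, the arrangement (DR5) bound by pairs of RAR and RXR in textbook accounts of this gene. The motif searched was NGGTCA or NGTTCA followed in the same orientation by either of them, on both strands, with 1, 2 or 5 bases between the hexamers. Of 32851 RefSeq windows, 0.402% held such a repeat with 1 base between, 0.399% with 2 bases and 0.247% with 5 bases. Windows were found for 7 of the 9 genes, 12 windows in all, and Rarb was the only gene of the 7 with a repeat of any of these spacings. TATAAA, searched on the strand of the gene, was present in 8.32% of all windows and lay at -139 to -134 in Cyp26b1. These matches describe letters in the windows and say nothing about binding in these tissues.

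Among the synthesis enzymes, Aldh1a1 made up most of the summed level in every library, and the SVZ had the least of it. Aldh1a1, which is also known as a marker of a subset of dopamine neurons in the midbrain, is a single transcript at chr19:20676472-20717952 on mm9. It stood at 4.67 and 6.66 FPKM in the SVZ samples, 25.7 FPKM in OB, 55.6 FPKM in DG and 36.3 FPKM in STR. Both SVZ samples lay below each of the other 3 libraries. All differences below are in log2(FPKM + 1) with the standard error of limma, and 1 unit corresponds to a 2-fold difference on this scale. The only replicate spread is that of the SVZ pair. For OB, DG and STR the error therefore describes the SVZ spread and is no test. The SVZ samples lie in different sets of alike libraries, so that spread also holds any difference between the sets. The SVZ was lower than STR by 2.50 ± 0.55 (difference -2.50), and the SVZ differences from OB and DG were -2.02 ± 0.51 and -3.10 ± 0.52. Within alike libraries, SVZ sample 2 minus STR was -2.28, SVZ sample 1 minus OB was -2.24 and SVZ sample 1 minus DG was -3.32. In the order of levels, DG came first, then STR and OB, each a single library, with differences of 0.60 ± 0.61 for DG minus STR, -0.48 ± 0.60 for OB minus STR and -1.08 ± 0.59 for OB minus DG, each below 2 of these standard errors. Routed through the SVZ pair so that only alike libraries are subtracted, DG minus STR was 1.03 and OB minus STR was -0.05. Tissue RNA cannot tell fewer cells of a type from less RNA per cell, here and in every result that follows.

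Aldh1a2 and Aldh1a3 were both highest in OB. Aldh1a2, the main retinoic acid enzyme of the embryo and of the meninges, lies at chr9:71063596-71144050 on mm9. Its level was 0.284 and 0.369 FPKM in the SVZ samples, 12.2 FPKM in OB, 1.92 FPKM in DG and 0.384 FPKM in STR. OB was far above the rest, and DG was above the SVZ and STR, which lay next to each other. The differences were 3.25 ± 0.37 for OB minus STR, 1.08 ± 0.38 for DG minus STR, -3.31 ± 0.36 for SVZ minus OB, -1.14 ± 0.40 for SVZ minus DG and 2.17 ± 0.32 for OB minus DG. Within alike libraries, SVZ sample 2 minus STR was -0.02, SVZ sample 1 minus OB was -3.36 and SVZ sample 1 minus DG was -1.18, and routed through the SVZ pair OB minus STR was 3.34 and DG minus STR was 1.17. With a pseudocount of 5, DG minus STR of Aldh1a2 was 0.36 and SVZ minus DG was -0.38. Aldh1a3, at chr7:73535779-73572363, stood at 0.0867 and 0.0157 FPKM in the SVZ samples, 2.28 FPKM in OB, 0.118 FPKM in DG and 0.0443 FPKM in STR. OB was the only library at 1 FPKM or more for Aldh1a3, with differences of 1.65 ± 0.25 for OB minus STR, -1.64 ± 0.27 for SVZ minus OB and 1.55 ± 0.20 for OB minus DG. SVZ sample 1 minus OB of Aldh1a3 was -1.59, and OB minus STR was 1.55 when routed through the SVZ pair. With a pseudocount of 5, its 3 differences were 0.53 for OB minus STR, -0.53 for SVZ minus OB and 0.51 for OB minus DG. Low levels make these log2 differences smaller than the ratios of FPKM.

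As a share of the 3 enzymes' summed FPKM, Aldh1a1 was 92.6% and 94.5% in the SVZ samples, 64.1% in OB, 96.5% in DG and 98.8% in STR. Aldh1a2 supplied 30.3% and Aldh1a3 5.67% of the sum in OB. The sums themselves were 5.04 and 7.04 FPKM in the SVZ samples, 40.2 FPKM in OB, 57.6 FPKM in DG and 36.7 FPKM in STR, so that the SVZ had the lowest summed level of the 4 regions.

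Some reads assigned to Aldh1a1 may be shared with its neighbour and near-identical copy Aldh1a7, a mouse aldehyde dehydrogenase. Aldh1a7 stood at 0.589 and 0.546 FPKM in the SVZ samples, 2.14 FPKM in OB, 3.46 FPKM in DG and 2.68 FPKM in STR. That is 12.6% and 8.21% of the Aldh1a1 level in the SVZ samples, 8.32% in OB, 6.23% in DG and 7.39% in STR. The sources used here do not give how reads common to both genes were divided, so the level of Aldh1a7 is uncertain, while Aldh1a1 had the larger level in each library.

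**Figure D1:**
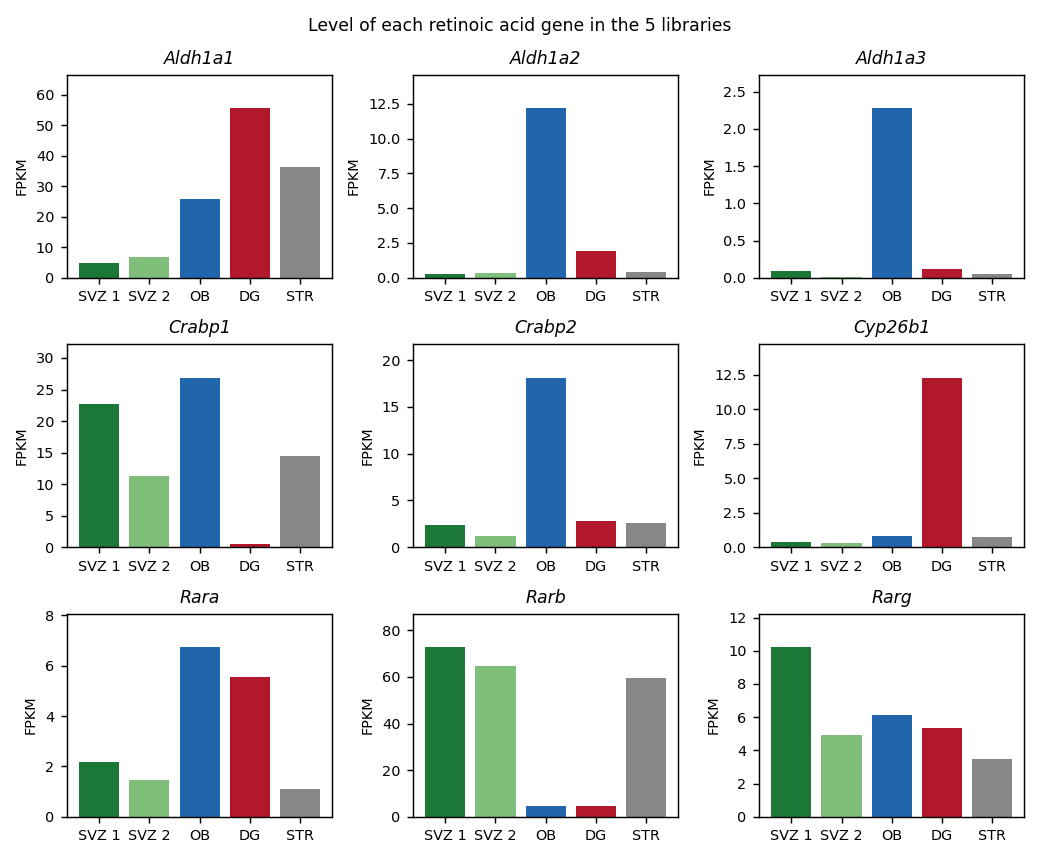
FPKM (vertical axis, linear, a separate scale per panel) of each of the 9 genes in the 5 libraries. Each bar is 1 library: SVZ samples 1 and 2, OB, DG and STR. Rarb is high in the SVZ samples and STR (59.5 to 72.6 FPKM), Cyp26b1 in DG (12.3 FPKM), and Aldh1a2, Aldh1a3 and Crabp2 in OB.

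The binding proteins divided the regions differently: Crabp1 was lowest in DG, and Crabp2 was highest in OB. Crabp1, a cytoplasmic binding protein linked to retinoic acid breakdown, lies at chr9:54612615-54620916 on mm9. It stood at 22.7 and 11.3 FPKM in the SVZ samples, 26.8 FPKM in OB, 0.458 FPKM in DG and 14.5 FPKM in STR. DG lay below every other library, and STR lay between the SVZ samples. DG minus STR was -3.41 ± 0.68, SVZ minus DG was 3.55 ± 0.57 and OB minus DG was 4.26 ± 0.70. OB minus STR was 0.84 ± 0.68, SVZ minus STR was 0.14 ± 0.55 and SVZ minus OB was -0.71 ± 0.58, all below 1 unit and below the gap of 0.95 between the SVZ samples. Within alike libraries, SVZ sample 2 minus STR was -0.33, SVZ sample 1 minus OB was -0.23 and SVZ sample 1 minus DG was 4.02. Routed through the SVZ pair, DG minus STR was -4.36 and OB minus STR was -0.10.

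Crabp2, which delivers retinoic acid to its nuclear receptors, lies at chr3:87752615-87757294. Its level was 2.42 and 1.15 FPKM in the SVZ samples, 18.1 FPKM in OB, 2.82 FPKM in DG and 2.57 FPKM in STR. OB stood above the other 4 libraries, which lay close to each other. OB minus STR was 2.42 ± 0.55, SVZ minus OB was -2.82 ± 0.49 and OB minus DG was 2.32 ± 0.54, while SVZ minus STR was -0.40 ± 0.52, SVZ minus DG was -0.50 ± 0.50 and DG minus STR was 0.10 ± 0.55. Within alike libraries, SVZ sample 2 minus STR was -0.73, SVZ sample 1 minus OB was -2.48 and SVZ sample 1 minus DG was -0.16. Routed through the SVZ pair, OB minus STR was 1.75 and DG minus STR was -0.57. Crabp1 made up 90.4% and 90.8% of the summed FPKM of both binding proteins in the SVZ samples, 59.7% in OB, 13.9% in DG and 84.9% in STR.

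Among the receptors, Rarb set the regional pattern. Rarb, whose loss in mice is known to disturb striatal development and motor behaviour, lies at chr14:17263354-17407724 on mm9 and is the gene with the direct repeat printed above. Rarb stood at 72.6 and 64.6 FPKM in the SVZ samples, 4.52 FPKM in OB, 4.56 FPKM in DG and 59.5 FPKM in STR. The SVZ samples and STR formed a high group, and OB and DG a low group at nearly the same level. SVZ minus OB was 3.65 ± 0.50, SVZ minus DG was 3.64 ± 0.51, OB minus STR was -3.45 ± 0.58 and DG minus STR was -3.44 ± 0.58. SVZ minus STR was 0.20 ± 0.56 and OB minus DG was -0.01 ± 0.56. Within alike libraries, SVZ sample 1 minus OB was 3.74, SVZ sample 1 minus DG was 3.73 and SVZ sample 2 minus STR was 0.12. Routed through the SVZ pair, OB minus STR was -3.62 and DG minus STR was -3.61.

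Rara was higher in OB and DG, where Rarb was lower. Rara, the most widely expressed of the receptors in textbook accounts, lies at chr11:98799010-98836256. It stood at 2.18 and 1.46 FPKM in the SVZ samples, 6.72 FPKM in OB, 5.56 FPKM in DG and 1.10 FPKM in STR. OB and DG lay above the SVZ samples and STR, with OB minus STR at 1.88 ± 0.48, DG minus STR at 1.64 ± 0.48, SVZ minus OB at -1.46 ± 0.44 and SVZ minus DG at -1.23 ± 0.46. OB minus DG was 0.24 ± 0.46, or -0.44 with the highest transcript per library in place of the sum, and SVZ minus STR was 0.41 ± 0.51. Within alike libraries, SVZ sample 1 minus OB was -1.28, SVZ sample 1 minus DG was -1.05 and SVZ sample 2 minus STR was 0.23, and routed through the SVZ pair OB minus STR was 1.51 and DG minus STR was 1.27. With a pseudocount of 5, the 4 differences of 1 unit or more became 0.94 for OB minus STR, 0.79 for DG minus STR, -0.78 for SVZ minus OB and -0.63 for SVZ minus DG. Of its 4 transcripts, NM_001177302 was listed at 0 in all 5 libraries. NM_001177303 held 36.8% and 100% of the Rara level in the SVZ samples, 56.9% in OB, 100% in DG and 68.7% in STR. The 2 SVZ samples differed as much in this share as any 2 regions, so no regional use of transcripts can be read from it.

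Rarg, a receptor best known from skin and the skeleton, lies at chr15:102065371-102087914. It stood at 10.2 and 4.94 FPKM in the SVZ samples, 6.10 FPKM in OB, 5.37 FPKM in DG and 3.50 FPKM in STR. OB and DG lay between the SVZ samples, and its 6 regional differences were 0.16 to 0.86 units, below the gap of 0.91 between the SVZ samples. Its transcript NM_001042727 held 69.9% and 67.7% of the gene's level in the SVZ samples, 73.4% in OB, 85.3% in DG and 69.4% in STR. SVZ sample 1 alone minus STR was 1.32, and SVZ sample 2 minus STR was 0.40. SVZ sample 1 minus OB was 0.66 and SVZ sample 1 minus DG was 0.81. Routed through the SVZ pair, OB minus STR was -0.25 and DG minus STR was -0.41, against 0.66 ± 0.65 and 0.50 ± 0.64 when subtracted directly.

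Rarb was 85.4% and 91.0% of the summed FPKM of the 3 receptors in the SVZ samples, 26.1% in OB, 29.4% in DG and 92.8% in STR. In OB and DG the 3 receptors were close to each other, with Rara at 38.7% and 35.9% and Rarg at 35.2% and 34.7%. The summed receptor level was 85.0 and 71.0 FPKM in the SVZ samples, 17.3 FPKM in OB, 15.5 FPKM in DG and 64.1 FPKM in STR. Rxrg, the RXR gene known for its striatal expression, stood at 84.2 and 65.7 FPKM in the SVZ samples, 8.95 FPKM in OB, 1.49 FPKM in DG and 93.7 FPKM in STR. It was 59.0% and 65.1% of the RXR sum in the SVZ samples, 15.4% in OB, 3.33% in DG and 71.3% in STR, and Rxrb was the largest RXR in OB (70.1%) and DG (75.5%). The 10 striatal projection neuron markers had the same high and low libraries as Rarb and Rxrg, with the sums given above and 0 of 10 listed at 0 in any library. Their part in the Rarb and Rxrg differences was not tested.

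**Figure D2:**
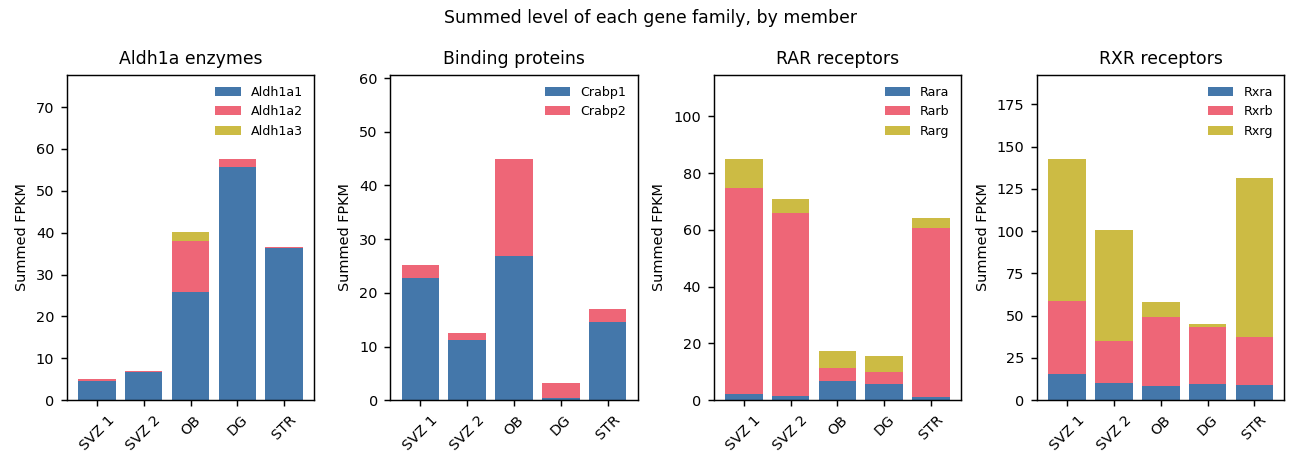
Summed FPKM (vertical axis, linear) of the Aldh1a enzymes, the Crabp binding proteins, the RAR receptors and the RXR receptors in SVZ samples 1 and 2, OB, DG and STR. Coloured segments are genes. The RAR sum is 85.0, 71.0 and 64.1 FPKM in the SVZ samples and STR and below 20 FPKM in OB and DG, where the Rarb segment is small.

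Cyp26b1, a retinoic acid hydroxylase expressed in the brain, was highest in DG. Located at chr6:84521408-84543902 on mm9, it stood at 0.379 and 0.330 FPKM in the SVZ samples, 0.813 FPKM in OB, 12.3 FPKM in DG and 0.758 FPKM in STR. DG was the only library at 1 FPKM or more, and the other 4 lay below that level. DG minus STR was 2.91 ± 0.37, SVZ minus DG was -3.29 ± 0.40 and OB minus DG was -2.87 ± 0.31. SVZ sample 1 minus DG was -3.26, and DG minus STR was 2.86 when routed through the SVZ pair. Transcript NM_001177713 held 100% of the level in DG and nearly all of it in the others. The family's other 2 genes, Cyp26a1 and Cyp26c1, did not reach 1 FPKM in any library. DG was therefore the region where a high Aldh1a1 level stood beside a high Cyp26b1 level and a low Crabp1 level. Beside Cyp26b1, the 6 dentate granule neuron markers summed to 81.9 and 104 FPKM in the SVZ samples, 9.31 FPKM in OB, 681 FPKM in DG and 131 FPKM in STR. Without Calb1 the sums were 9.07 and 8.65 FPKM in the SVZ samples, 5.77 FPKM in OB, 569.8 FPKM in DG and 7.05 FPKM in STR. The 6 cortical and CA (Ammon's horn) excitatory neuron markers summed to 3.65 and 10.1 FPKM in the SVZ samples, 471 FPKM in OB, 1097 FPKM in DG and 28.1 FPKM in STR. The part of either cell type in the Cyp26b1 level was not tested.

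Most meningeal fibroblast markers were highest in OB, as Aldh1a2, Aldh1a3 and Crabp2 were. The 11 meningeal fibroblast markers summed to 169 and 187 FPKM in the SVZ samples, 2351 FPKM in OB, 300.1 FPKM in DG and 242 FPKM in STR. Ptgds alone supplied 2178 FPKM of the OB sum. In the other libraries it supplied 141 and 172 FPKM (SVZ samples), 264 FPKM (DG) and 226 FPKM (STR). The median difference of the 11 markers was 2.86 for OB minus STR, -2.76 for SVZ minus OB and 2.00 for OB minus DG. Of the 11, 10 were highest in OB, the exception being Lum, and 0 were listed at 0 in any library. OB was 1 unit or more above STR for 10 of the 11 and for 30.7% of all coding genes. Most markers were also highest in OB for olfactory bulb neurons (6 of 6), neuroblasts, oligodendrocyte precursors and ensheathing glia and nerve (5 of 6 each). The same held for dopamine neurons (5 of 7), endothelial and mural cells (6 of 10) and microglia (4 of 6). Each remaining list had 0 to 3 markers highest in OB. Slc22a6, an organic anion transporter of the meninges, stood at 0.120 and 0.0276 FPKM in the SVZ samples, 8.01 FPKM in OB, 1.25 FPKM in DG and 0.238 FPKM in STR, an order close to that of Aldh1a2. Other markers of the list differed from that order, with Foxc1 and Slc47a1 lowest in DG, at 0.600 and 0.0689 FPKM. DG was 1 unit or more above STR for 4 of the 11 markers. The part of meningeal tissue in the levels of Aldh1a2, Aldh1a3 and Crabp2 was not tested. The 6 markers of olfactory ensheathing glia and olfactory nerve summed to 854 and 826 FPKM in the SVZ samples, 1362 FPKM in OB, 299.9 FPKM in DG and 928 FPKM in STR. That list shares members with the oligodendrocyte and precursor lists. S100a5, a gene of olfactory receptor neurons, measured 409 FPKM in OB and had a listed value of 0 in the SVZ samples, DG and STR.

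Dopamine neuron markers are given beside Aldh1a1. The 7 markers summed to 10.1 and 12.1 FPKM in the SVZ samples, 231 FPKM in OB, 14.0 FPKM in DG and 13.8 FPKM in STR. Th, which encodes tyrosine hydroxylase, stood at 2.50 and 1.83 FPKM in the SVZ samples, 200.3 FPKM in OB, 0.311 FPKM in DG and 4.24 FPKM in STR. Without Th the other 6 summed to 7.60 and 10.3 FPKM in the SVZ samples, 30.2 FPKM in OB, 13.7 FPKM in DG and 9.59 FPKM in STR. Nr4a2, a transcription factor of these neurons and of others, had values of 0.700 and 0.836 FPKM in the SVZ samples, 14.8 FPKM in OB, 10.9 FPKM in DG and 3.03 FPKM in STR, lowest in the SVZ as Aldh1a1 was. Th, Ddc and Slc18a2 were lowest in DG, where Aldh1a1 was highest, at 0.311, 0.978 and 1.69 FPKM. Slc6a3 was lowest in STR, at 0.0244 FPKM. Pitx3 and En1, transcription factors of midbrain dopamine neurons, were at 0.0482 FPKM or less in every library. The part of dopamine neurons in the Aldh1a1 level was not tested.

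**Figure D3:**
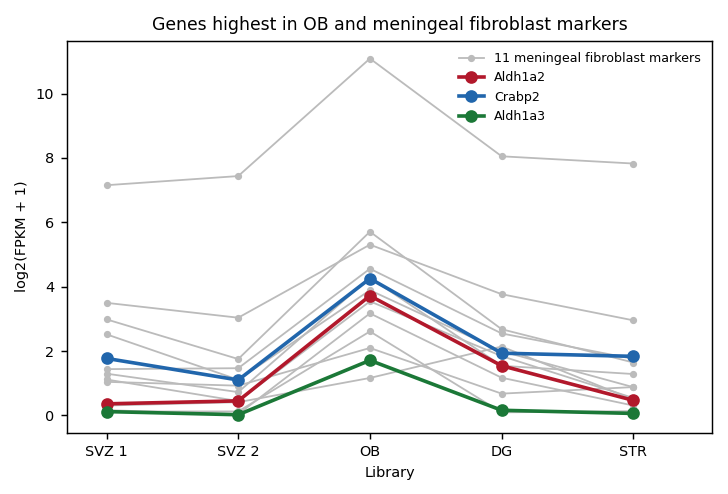
Level in log2(FPKM + 1) (vertical axis) of Aldh1a2, Crabp2 and Aldh1a3 (coloured lines) and of 11 meningeal fibroblast markers (grey lines) in SVZ samples 1 and 2, OB, DG and STR. Lines join the values of 1 gene and imply no order of the libraries. The 3 coloured lines and 10 of the 11 grey lines peak at OB. Most markers of several other cell types, not drawn, were also highest in OB.

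Counted over region pairs, the 9 genes differed least between the SVZ and STR, and so did all coding genes. Both background shares given below were smallest in that pair. A gene entered a pair when a library of either region reached 1 FPKM, and it was counted when it lay 1 unit or more apart. The genes were chosen with these values known, so the shares of all coding genes are given only as background. For SVZ minus STR, 6 of 9 genes entered, 0 were higher (background 7.13%) and 1, Aldh1a1, was lower (1.15%). For OB minus STR, 8 entered, 4 were higher (30.7%), namely Aldh1a2, Aldh1a3, Rara and Crabp2, and 1, Rarb, was lower (6.71%). For DG minus STR, 8 entered, with Aldh1a2, Rara and Cyp26b1 higher (17.6%) and Rarb and Crabp1 lower (8.36%).

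Among the neurogenic regions, SVZ minus OB took in 8 genes, of which Rarb was higher (7.22%) and 5, Aldh1a1, Aldh1a2, Aldh1a3, Rara and Crabp2, were lower (14.9%). SVZ minus DG took in 8, with Rarb and Crabp1 higher (10.7%) and Aldh1a1, Aldh1a2, Rara and Cyp26b1 lower (8.07%). OB minus DG took in all 9, with Aldh1a2, Aldh1a3, Crabp1 and Crabp2 higher (14.4%) and Aldh1a1 and Cyp26b1 lower (5.31%). The median difference over the genes that entered was 0.17 for SVZ minus STR, 1.25 for OB minus STR, 0.55 for DG minus STR, -1.55 for SVZ minus OB, -0.82 for SVZ minus DG and 0.24 for OB minus DG. Over all coding genes that entered, the medians were 0.24, 0.53, 0.26, -0.24, 0.01 and 0.25 in the same order of pairs. A scaling of each library by its median ratio shifted these coding medians by -0.27, -0.51, -0.27, 0.25, 0.00 and -0.25. With that scaling, OB minus STR of Aldh1a1 became -1.05 and DG minus STR of Aldh1a2 became 0.98.

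**Figure D4:**
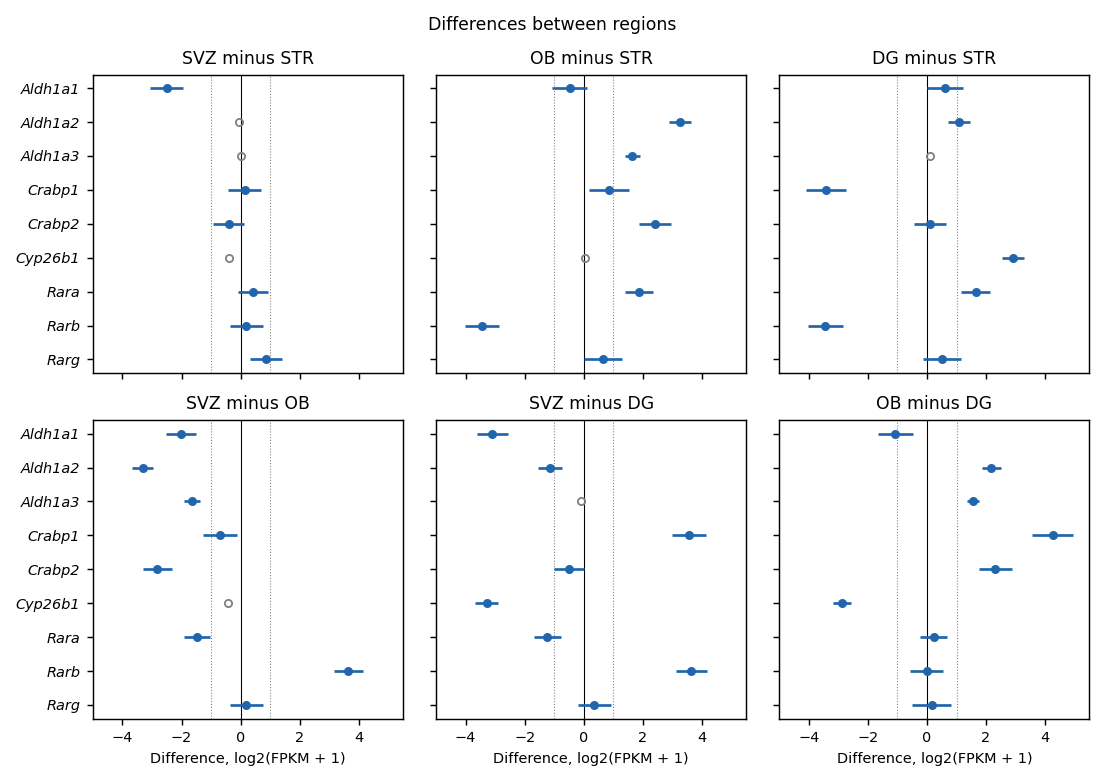
Difference in log2(FPKM + 1) (horizontal axis) of each of the 9 genes in 6 region pairs, the region named first minus the other. Filled points with bars are differences ± 1 standard error of limma, open points are genes below 1 FPKM in every library of the pair, and dotted lines mark 1 unit either way. Rarb lies beyond the lines in 4 of the 6 panels and Rarg in 0.

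The rest of the retinoid pathway was read from a list of 53 genes, 52 of which were in the table under the listed symbols. Of these, 38 reached 1 FPKM in a library, and 22 of those had regions at least 1 unit apart, as did 51.3% of all coding genes that reached 1 FPKM. Another 16 stayed within 1 unit, 14 did not reach 1 FPKM, and 4 of the 14 were listed at 0 in all libraries (Sdr16c5, Hoxb1, Hoxd4 and Stra8). In limma, with p-values adjusted over all coding genes that entered a pair and a threshold of 0.05, SVZ minus STR had 1 of 36 list genes higher (1.4% of all coding genes) and 0 lower (0.0449%), OB minus STR had 0 of 36 higher (3.93%) and 3 lower (0.771%), and DG minus STR had 0 of 36 higher (1.56%) and 2 lower (0.908%). For SVZ minus OB, 6 of 36 were higher (1.78%) and 0 lower (3.6%). For SVZ minus DG, 3 of 36 were higher (2.7%) and 0 lower (1.97%), and for OB minus DG, 1 of 35 was higher (3.48%) and 1 lower (1.08%). These 17 calls were on 7 genes, and 0 of the 17 held when genes below 1 FPKM were kept in the limma fit, where their adjusted p ranged from 0.0989 to 0.927. Without a mean-variance trend, 9 of the 17 held. The calls therefore depend on which genes share the estimate of the spread, which rests on 1 residual degree of freedom from the SVZ pair. Between OB, DG and STR, which have 1 library each, the p-values assume that these regions vary as the SVZ samples do. The SVZ samples lie in different sets of alike libraries, so their spread mixes replicate variation with any difference between the sets. The list was chosen with earlier results of these data known, and the called genes Drd2, Rarres2 and Ttr are also cell type markers here. Differences of all list genes are therefore given without p-values.

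The list medians were 0.24 for SVZ minus STR, 0.42 for OB minus STR, 0.16 for DG minus STR, -0.15 for SVZ minus OB, 0.21 for SVZ minus DG and 0.37 for OB minus DG, to be read beside the coding medians above.

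Of the partner receptors, Rxrg was lower in DG and OB than in STR. DG minus STR was -5.25 ± 0.59, OB minus STR was -3.25 ± 0.59, SVZ minus DG was 4.92 ± 0.52 and SVZ minus OB was 2.92 ± 0.51. The limma calls of Rxrg were each lost with low genes kept. Routed through the SVZ pair, DG minus STR of Rxrg was -5.60 and OB minus STR was -3.60. Rxra and Rxrb stayed within 1 unit, at 8.39 to 15.7 FPKM and 25.2 to 42.8 FPKM over the libraries.

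Among carrier and uptake genes, all 6 varied by 1 unit or more. Rbp4, the plasma carrier of retinol, stood at 15.3 and 12.2 FPKM in the SVZ samples, 1.31 FPKM in OB, 2.80 FPKM in DG and 11.4 FPKM in STR. SVZ minus OB of Rbp4 was 2.67 ± 0.50. Ttr, the thyroxine carrier that binds Rbp4 in plasma and a gene of the choroid plexus, stood at 15.1 and 18.2 FPKM in the SVZ samples, 0.950 FPKM in OB, 17.6 FPKM in DG and 6.37 FPKM in STR. SVZ minus OB of Ttr was 3.17 ± 0.50 and OB minus DG was -3.25 ± 0.60. Both genes were thus lowest in OB, the library with the most Aldh1a2. The 9 choroid plexus markers, which include Ttr, summed to 35.7 and 33.9 FPKM in the SVZ samples, 54.4 FPKM in OB, 23.4 FPKM in DG and 12.6 FPKM in STR, with Aqp1 supplying 50.7 FPKM of the OB sum. The part of choroid plexus tissue in the Ttr level was not tested.

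Stra6, the cell surface receptor for Rbp4, stood at 6.76 and 4.38 FPKM in the SVZ samples, 7.79 FPKM in OB, 7.60 FPKM in DG and 1.26 FPKM in STR, so each neurogenic library was above STR. It passed the limma threshold in 0 of 6 pairs. Rbp2, a cellular retinol binding protein of the intestine, stood at 3.14 and 0.698 FPKM in the SVZ samples, 0.191 FPKM in OB and listed at 0 in DG and STR. Rbp7 was at 0.193 FPKM in SVZ sample 1, 1.00 FPKM in OB and 0.0700 FPKM in STR, and listed at 0 in SVZ sample 2 and DG. Rbp7 just reached the filter, and its OB minus DG difference was 1.00 ± 0.20. That limma call held in 1 of the 4 alternative fits.

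Of the storage genes, Lpl, a lipoprotein lipase that also frees retinyl esters, stood at 17.7 and 17.4 FPKM in the SVZ samples, 0.597 FPKM in OB, 9.53 FPKM in DG and 23.1 FPKM in STR. OB minus STR was -3.91 ± 0.59 and SVZ minus OB was 3.54 ± 0.50. These limma calls held in 2 and 3 of the 4 alternative fits, in that order. OB minus STR of Lpl was -3.94 when routed through the SVZ pair. Dgat1, an acyltransferase that can esterify retinol, stood at 11.5 and 5.89 FPKM in the SVZ samples, 17.1 FPKM in OB, 8.33 FPKM in DG and 5.77 FPKM in STR. Rpe65, the retinoid isomerase of the retinal pigment epithelium, stood at 0.146 and 0.109 FPKM in the SVZ samples, 0.120 FPKM in OB, listed at 0 in DG and at 1.12 FPKM in STR. Lrat, the main retinol esterifying enzyme of the liver and eye, did not reach 1 FPKM.

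Of the 14 retinol and retinal oxidoreductases, which include the enzymes of the first oxidation step, 9 reached 1 FPKM, 3 of these had regions 1 unit apart, and 0 passed the limma threshold in any pair. Rdh10, the retinol dehydrogenase required for retinoic acid in the mouse embryo, stood at 11.5 and 8.38 FPKM in the SVZ samples, 5.75 FPKM in OB, 7.22 FPKM in DG and 4.14 FPKM in STR. The SVZ had the most Rdh10 and the least Aldh1a1. Rdh5 stood at 2.80 and 1.13 FPKM in the SVZ samples, 3.82 FPKM in OB, 2.83 FPKM in DG and 0.906 FPKM in STR. Rdh13, a mitochondrial member, stood at 9.52 and 6.45 FPKM in the SVZ samples, 19.1 FPKM in OB, 7.84 FPKM in DG and 6.55 FPKM in STR. Dhrs3, which turns retinal back into retinol, stayed between 9.24 and 12.8 FPKM.

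Retinoic acid can also be bound by Fabp5, a fatty acid binding protein that passes it to the receptor Ppard. Fabp5 stood at 51.5 and 61.0 FPKM in the SVZ samples, 33.7 FPKM in OB, 25.1 FPKM in DG and 58.4 FPKM in STR. Ppard stood at 11.1 and 4.81 FPKM in the SVZ samples, 20.4 FPKM in OB, 11.2 FPKM in DG and 5.81 FPKM in STR. Fabp5 was thus higher than Crabp1 and Crabp2 in every library, and lowest in DG as Crabp1 was.

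All 8 corepressors and coactivators were detected, 0 passed the limma threshold, and 2 varied by 1 unit. Kat2b, an acetyltransferase, stood at 7.06 and 11.8 FPKM in the SVZ samples, 7.84 FPKM in OB, 2.83 FPKM in DG and 9.31 FPKM in STR.

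Of 9 known target genes of retinoic acid, 5 reached 1 FPKM. Drd2, the D2 dopamine receptor and also a striatal marker used here, stood at 208 and 87.5 FPKM in the SVZ samples, 3.75 FPKM in OB, 2.42 FPKM in DG and 151 FPKM in STR. OB minus STR of Drd2 was -5.01 ± 0.73 and DG minus STR was -5.48 ± 0.72. SVZ minus OB of Drd2 was 4.84 ± 0.63 and SVZ minus DG was 5.31 ± 0.63. For Drd2, OB minus STR was -6.25 and DG minus STR -6.72 when routed through the SVZ pair. Drd2 had the same high and low libraries as Rarb, as the other striatal markers did. Rarres2, which encodes chemerin and is also in the ependymal list, stood at 91.9 and 30.6 FPKM in the SVZ samples, 4.63 FPKM in OB, 5.48 FPKM in DG and 3.14 FPKM in STR. For Rarres2, the SVZ was higher than STR by 3.71 ± 0.60, than OB by 3.27 ± 0.70 and than DG by 3.06 ± 0.67. Drd2 and Rarres2 are both in the marker lists, so their differences are a description. The ependymal markers were high in the same libraries, and their part in the Rarres2 level was not tested. Tgm2, a transglutaminase, stood at 13.2 and 5.79 FPKM in the SVZ samples, 14.8 FPKM in OB, 5.35 FPKM in DG and 3.96 FPKM in STR. Rai1, a gene induced by retinoic acid in cultured cells, stood at 27.4 and 12.7 FPKM in the SVZ samples, 33.6 FPKM in OB, 30.0 FPKM in DG and 11.5 FPKM in STR. Tgm2 and Rai1 passed the limma threshold in 0 pairs, and the Hox genes of the list did not reach 1 FPKM.

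**Figure D5:**
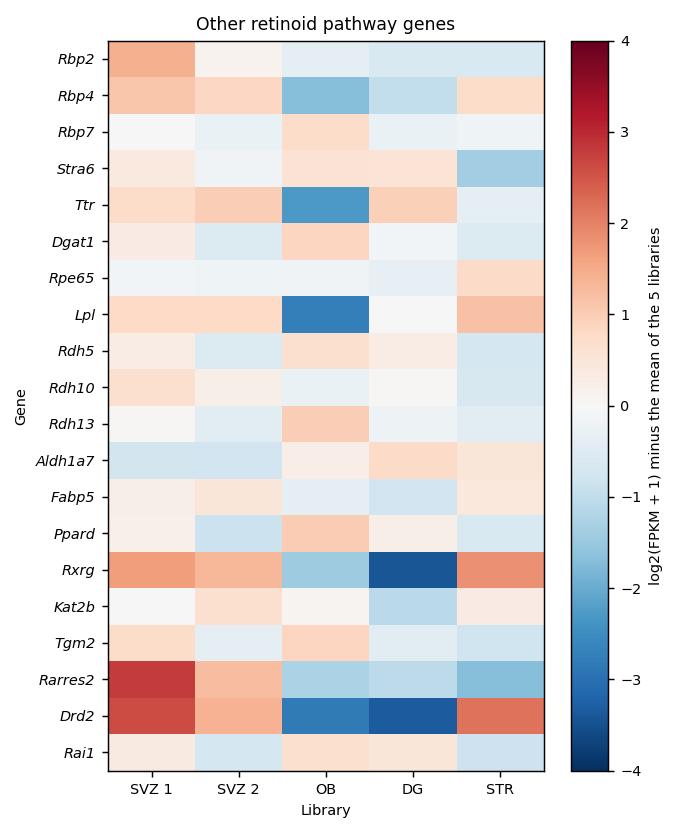
Other retinoid pathway genes with regions at least 1 unit apart, those named in the text (rows) in SVZ samples 1 and 2, OB, DG and STR (columns). Colour is log2(FPKM + 1) minus the gene's mean over the 5 libraries, red above and blue below it. Rxrg and Drd2 are red in both SVZ samples and STR and blue in OB and DG, and Rbp4, Ttr and Lpl are bluest in OB.

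The coding genes whose levels over the 5 libraries ran closest to each retinoic acid gene were found by the root mean square (RMS) distance of log2(FPKM + 1), each gene centred on its mean, among 11412 genes that reached 5 FPKM. Rarb was nearest to Htr2c (RMS 0.25), a serotonin receptor, followed by Gprin3 (0.27) and Isl1 (0.27), a transcription factor of striatonigral neurons. Aldh1a2 was nearest to Thbs2 (0.06), a secreted thrombospondin, then to Slc22a6 (0.14) and Dcn (0.15), which are in the meningeal list. Crabp2 was nearest to Igfbp6 (0.12), Pygm (0.12) and St8sia5 (0.17). Cyp26b1 was nearest to Hsd11b1 (0.12), a steroid dehydrogenase, Lhx9 (0.15), a transcription factor, and Zcchc5 (0.16).

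Lhx9 stood at 0.0177 and 0.0286 FPKM in the SVZ samples, 0.341 FPKM in OB, 7.95 FPKM in DG and 0.0113 FPKM in STR, a DG pattern like that of Cyp26b1. Crabp1 was nearest to Pcp4l1 (RMS 0.20), Atp6ap1l (0.26) and Sez6 (0.31), all of them lowest in DG. The nearest genes to Rara were Dtx4 (0.10), Doc2a (0.10) and Prr13 (0.11), and those to Rarg were Bphl (0.04), Wwc1 (0.07) and Abhd14b (0.09). Aldh1a1 had no close neighbour: its nearest genes were Ryr2 (0.47), Chrm3 (0.55) and Cpne9 (0.56). Aldh1a3 stayed below 5 FPKM and was not compared. With 5 libraries from 4 regions, many genes share a pattern by region alone.

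Long noncoding RNA loci of the deposited catalogue lay within 50 kb of 3 of the 9 genes on mm9. The E030003E18Rik locus, at chr19:20567152-20640399 on the plus strand, ended 36.1 kb before Aldh1a1 and held 8 transcripts of 202 to 923 bases. Its summed level was 5.41 and 11.0 FPKM in the SVZ samples, 26.3 FPKM in OB, 78.6 FPKM in DG and 56.2 FPKM in STR, the same order of libraries as Aldh1a1. Most of that sum came from 2 transcripts shorter than 250 bases. Over the other 6 transcripts it was 0.0917 and 0.255 FPKM in the SVZ samples, 6.62 FPKM in OB, 18.1 FPKM in DG and 4.13 FPKM in STR, which places OB above STR. In the RefSeq table of GRCm38.p6, E030003E18Rik lies within the span of Aldh1a1, and whether the reads belong to a separate RNA was not tested. The locus 6.58 kb beyond Rara, whose nearest reference gene is Gjd3, stood at 0.667 and 0.201 FPKM in the SVZ samples, 0.431 FPKM in OB, 0.487 FPKM in DG and 0.476 FPKM in STR. The locus 13.1 kb from Rarg did not exceed 0.110 FPKM, and no catalogue locus lay within 50 kb of the other 6 genes.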

How the data were processed

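The deposited expression table gives FPKM that the authors computed for 37142 transcripts, 28150 of them reference transcripts and 8992 of their long noncoding RNA catalogue. The submitters' processing notes name Cufflinks 1.0.0, TopHat 1.2.0, CASAVA and build mm9. Strandedness and the handling of reads that map to several places are not given in the sources used here, so near-identical and overlapping genes can share reads. A 0 may stand for a failed estimate and is written as listed at 0. The deposited exon file of the catalogue, whose score column holds no measurement, was used for loci only, and locus starts, counted from 0 in the table, were raised by 1.

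FPKM were summed per symbol over coding transcripts (20340 genes) and compared as log2(FPKM + 1), which understates folds of low genes. Genes entered a pair when a library of either region reached 1 FPKM. All 5 libraries, as 4 region groups, were fitted in limma 3.58.1 under R 4.3.3, with a mean-variance trend, with Benjamini-Hochberg adjustment over all genes of the pair. Its 1 residual degree of freedom is the SVZ pair, so the other regions are assumed to vary as the SVZ does, and p-values measure only that spread. That pair spans both sets of alike libraries, so its spread also holds any difference between them. Named were the 9 genes, the pathway genes with regions 1 unit apart, the 3 nearest genes of each and catalogue loci within 50 kb. The 9 genes, the pathway list and the 15 cell type lists were chosen with earlier results of these data known. Pseudocounts of 0.1 and 5, no filter, median ratio scaling, the highest transcript, limma without a trend, and leaving out each SVZ sample were tried. OB and DG minus STR of the 9 genes were also routed through the SVZ pair, as the region minus SVZ sample 1 plus SVZ sample 2 minus STR, and the same for called pathway genes was chosen after seeing the data. Promoter sequences are from RefSeq on GRCm38.p6. Some genes of the lists are counted but not reported here by name.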

Additional observations from a re-analysis of the deposited data

How the results depend on the processing

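No difference of 1 unit or more changed its sign under any alternative. Smaller differences did so 14 times: with median ratio scaling Rarb (-0.10) and Crabp1 (-0.15) in SVZ minus STR, Crabp2 in DG minus STR (-0.13), and Rara (-0.0045) and Rarg (-0.08) in OB minus DG, with the highest single transcript Rara (-0.44) and Rarg (-0.03) in OB minus DG, without SVZ sample 1 Crabp1 in SVZ minus STR (-0.33) and Rarg in SVZ minus OB (-0.26) and SVZ minus DG (-0.10), and routed through the SVZ pair Rarg (-0.25) and Crabp1 (-0.10) in OB minus STR and Rarg (-0.41) and Crabp2 (-0.57) in DG minus STR. The number of genes at least 1 log2 unit apart became 2 for SVZ minus STR with a pseudocount of 0.1. For that pair it ranged from 1 to 2 when an SVZ sample was left out, through Rarg (1.32 without SVZ sample 2). A pseudocount of 5 shrinks the differences of low genes by its construction. With it the number fell from 5 to 3 for OB minus STR and for DG minus STR. It fell from 6 to 4 for SVZ minus OB, SVZ minus DG and OB minus DG. Median ratio scaling gave 6 for OB minus STR and 4 for DG minus STR. The number was 7 for SVZ minus OB without SVZ sample 1, and 6 for DG minus STR when routed through the SVZ pair. Of 47 single differences, 10 crossed the 1 unit line with a pseudocount of 5 (4 of Rara, 3 of Aldh1a3, 2 of Aldh1a2 and 1 of Aldh1a1), 1 with a pseudocount of 0.1, 2 with median ratio scaling, and 0 with no filter or the highest single transcript. Of 22 involving the SVZ, 1 crossed without each SVZ sample: Rarg in SVZ minus STR without SVZ sample 2, and Crabp1 in SVZ minus OB (-1.18 without SVZ sample 1). Of 16 routed through the SVZ pair, 1 crossed (Aldh1a1, DG minus STR). Pathway genes called by limma without the filter numbered 0 for SVZ minus STR, 1 for OB minus STR, 0 for DG minus STR, 1 for SVZ minus OB, 0 for SVZ minus DG and 2 for OB minus DG, on Dhrs9 and Aldh8a1, neither of which is among the genes called with the filter. Without a trend they numbered 0 for OB minus STR and 0 for OB minus DG, with a pseudocount of 0.1 they numbered 5 for SVZ minus DG, and with a pseudocount of 5 they numbered 0 for OB minus DG. Over all coding genes, limma called 193, 628, 321, 744, 635 and 610 genes in SVZ minus STR, OB minus STR, DG minus STR, SVZ minus OB, SVZ minus DG and OB minus DG. Without the filter it called 0, 396, 0, 659, 45 and 658, at unadjusted p under 0.05 in 1173, 2843, 2023, 2994, 2254 and 2811 genes, and without a trend 148, 46, 101, 251, 368 and 0 (1494 at unadjusted p under 0.05 in OB minus DG). The total degrees of freedom behind these p-values, counting spread borrowed from other genes, were 2.04 in every pair without the filter. With the filter and a trend they were 6.74 to 25.0, and with the filter but no trend 4.80 to 20.6. The cause of the lost calls was not tested further. Leaving out an SVZ sample leaves no replicate, so those settings gave values with no test. No paired analysis was possible because only the SVZ has 2 samples.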

Other observations

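Cell types that did not stand beside a retinoic acid gene above were compared by the summed FPKM of their markers. The 8 oligodendrocyte markers summed to 3265 and 2723 FPKM in the SVZ samples, 1535 FPKM in OB, 882 FPKM in DG and 3059 FPKM in STR, so the SVZ and STR dissections held more myelin RNA than OB and DG. The 6 oligodendrocyte precursor markers summed to 155 and 92.7 FPKM in the SVZ samples, 186 FPKM in OB, 102 FPKM in DG and 99.7 FPKM in STR. The 7 markers of stem cells and astrocytes summed to between 871 and 1059 FPKM, but single markers differed. Gfap measured 92.4 and 43.2 FPKM in the SVZ samples, 278 FPKM in OB, 252 FPKM in DG and 20.6 FPKM in STR, and Thbs4 measured 70.5 and 27.7 FPKM in the SVZ samples, 1.27 FPKM in OB, 12.01 FPKM in DG and 1.24 FPKM in STR. The 10 endothelial and mural markers summed to 131 and 89.8 FPKM in the SVZ samples, 192 FPKM in OB, 103 FPKM in DG and 111 FPKM in STR. The 6 microglia markers stayed between 88.0 and 143 FPKM.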
